A study of Mus musculus and Rattus norvegicus with 12 samples.

Results

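Rat XENP lines and mouse pXEN lines, extraembryonic endoderm cells kept under the same culture protocol, were compared by where each gene ranked within each line. Rat and mouse gene symbols were matched by identical spelling. The rat tables held 17314 symbols and the mouse tables had 24410, the ribosomal RNA precursor Rn45s left out, and 14386 symbols were shared. All 7 lines were independently derived, out of 12 lines in the series, so the spread between replicates is a spread between lines. The 4 rat lines were CX1 (WKY strain, male, passages 38 and 40), MAX8 (WKY, female, passages 11 and 12), MAX2 (F344, female, passages 16 and 17) and MAX3 (F344, male, passages 10 and 11). The 3 mouse lines came from the ICR strain and were pXEN2 (male, passages 19 and 20), pXEN4 (female, passages 17 and 18) and pXEN6 (female, passages 19 and 21). The labels name no transgene or genotype, each line is a single derivation, and strains were not shared between species. Mouse XEN lines (XEN1, XEN2 and XEN5, ICR, on feeder fibroblasts in serum) and embryonic stem (ES) lines (ES2 and ES3, ICR, with LIF, serum and 2 kinase inhibitors) served only as mouse reference points.

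Primitive endoderm is the layer of the blastocyst that faces the cavity and gives rise to the endoderm of the yolk sacs. Its visceral derivative absorbs and secretes nutrients and expresses apolipoproteins and endocytic receptors, and its parietal derivative lays down Reichert's membrane, a thick basement membrane of laminin and type IV collagen. GATA6, GATA4, SOX17, SOX7 and the receptor PDGFRA are known for specifying or maintaining this lineage, while NANOG and SOX2 maintain the epiblast. Stem cell lines of the lineage have been derived from both mouse and rat.

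Species, genome build, gene annotation and group change together here, and their parts in any difference cannot be told apart. Between 65.48% and 70.1% of reads in a rat line mapped to more than 1 place and were not assigned to a gene, against 9.041% to 9.648% in a pXEN line. Shared symbols held 1020274 to 1206428 counts per rat line and 1718243 to 1959606 per pXEN line. Rn45s took 20.7% to 39.99% of gene counts in pXEN lines and 0.008214% to 0.03122% in rat lines. Values scaled to library totals are therefore not on a common scale, and each gene was given its percentile among the shared symbols of its own line instead, where 100 is the most counted symbol and symbols with 0 counts share a percentile between 16.26 and 17.37. Percentiles carry no scaling for transcript length, so they compare a gene with itself across lines. The number of shared symbols with a count was similar, 9485 to 9708 in rat lines and 9389 to 9627 in pXEN lines. Genes with near-identical copies elsewhere in a genome lose reads that map to several places, and their values are uncertain.

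The main comparison asked which genes hold a different rank in the rat lines than in mouse lines of the same culture. Of 8155 symbols with at least 10 counts in at least 3 of the 7 lines, 2460 (30.2%) ranked higher in rat, 2391 (29.3%) ranked lower and 3304 were not called (limma on percentiles, Benjamini-Hochberg adjusted p under 0.05 over all 8155). So 59.5% of tested symbols were called, and the rat and pXEN values did not overlap for 4980 symbols (61.1%). These shares are the background for every count of genes below, and a share near 30.2% in either direction is the share of tested symbols at large. A symbol with fewer than 10 counts in every pXEN line was tested only through its rat counts, so it could hardly be called lower. The reverse holds for a symbol with fewer than 10 counts in every rat line. The median absolute difference was 8.13 percentile points, and 10% of symbols differed by more than 28.85 points. Within 10 points lay 4674 symbols, or 57.3%.

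**Figure D1:**
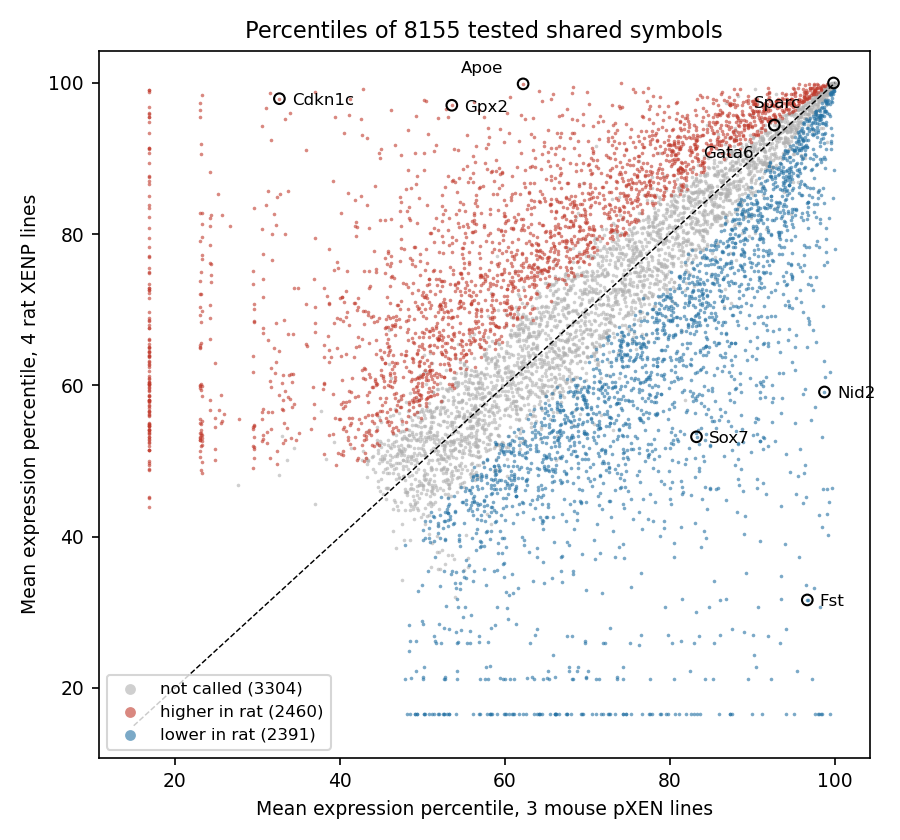
Mean expression percentile of the 8155 tested symbols in the 3 mouse pXEN lines (x axis) and the 4 rat XENP lines (y axis), 1 point per symbol, with the line of equality dashed. Red points ranked higher in rat (2460), blue points ranked lower (2391) and grey points were not called (3304); the vertical and horizontal strings of points at the left and bottom edges are symbols with few or no counts in 1 species.

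Rank orders were closer within a species than between species. Over the 8155 symbols, Spearman's rank correlation was 0.91 to 0.972 among rat lines, 0.93 to 0.961 among pXEN lines and 0.575 to 0.621 between rat and pXEN lines. The correlation between rat and mouse XEN lines covered about the same range, 0.575 to 0.619, and between rat and ES lines it was 0.503 to 0.579. These are descriptions over symbols, which are not independent replicates, and mouse lines share a genome and annotation that rat lines do not. CX1, the rat line at the highest passage, stood somewhat apart, at 0.91 to 0.927 with the MAX lines, which reached 0.955 to 0.972 among themselves. Without CX1, 61.3% of 8038 tested symbols were called, 30.3% higher in rat and 31.1% lower, and the count of called members of any gene list below moved by at most 2 in either direction.

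**Figure D2:**
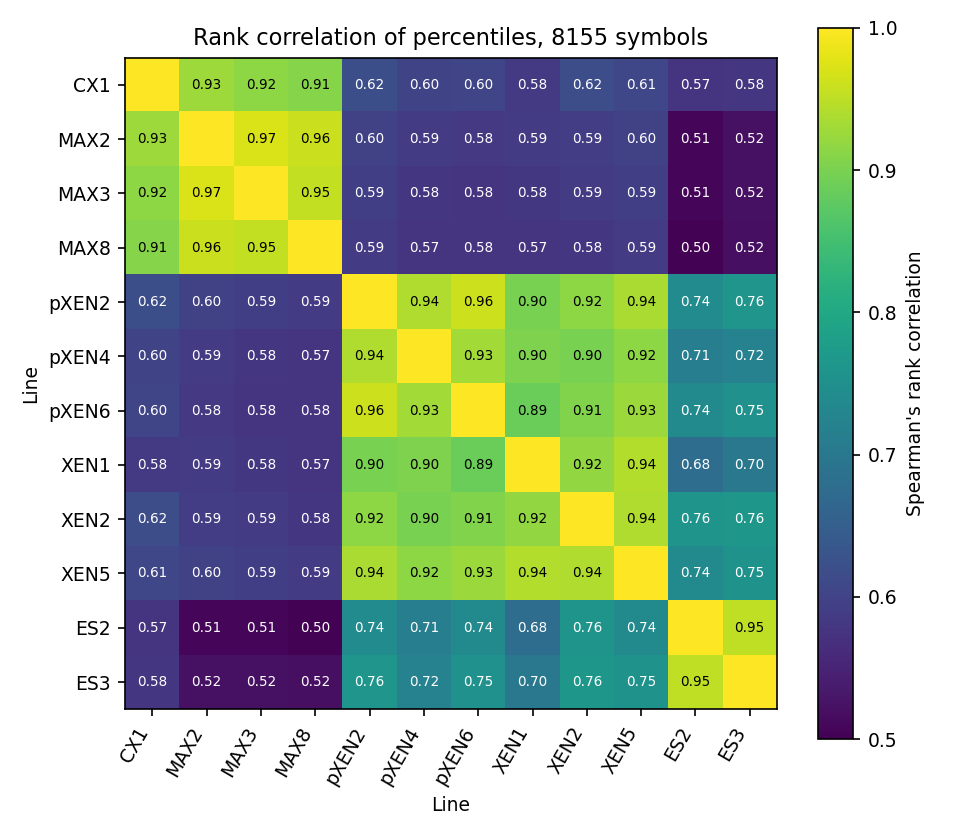
Spearman's rank correlation of percentiles between each pair of the 12 lines over the 8155 tested symbols, with the color scale from 0.5 to 1. Rat lines (CX1, MAX2, MAX3, MAX8) form a block above 0.9, and their values with mouse lines lie between 0.503 and 0.621.

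Both groups carried the core transcription factors of primitive endoderm at high rank, which matches the endoderm label of all 7 lines. Gata6, which specifies the lineage, stood at percentile 91.32 in CX1, 95.88 in MAX2, 94.88 in MAX3 and 95.59 in MAX8, against 92.62 in pXEN2, 91.47 in pXEN4 and 93.86 in pXEN6. CX1 lay below the pXEN lines and the MAX lines above them, and the difference of 1.77 points (SE 1.15) was not called (adjusted p = 0.212). Without CX1 it was 2.8 points and called (adjusted p = 0.0106). Its partner Gata4 ranked higher in every rat line, at 98.58 to 99.28 against 96.94 to 97.02 (difference 2.03, SE 0.33, adjusted p = 0.000742). That call was lost when all 12 lines shared 1 estimate of the spread (adjusted p = 0.136). Sox17, another endoderm factor, stood at 98.5 to 99.39 in rat and 97.92 to 98.65 in pXEN with overlap and was not called (difference 0.61, adjusted p = 0.172). Pdgfra, the growth factor receptor that marks primitive endoderm, was at 94.24 in CX1 and 97.95 to 98.27 in the MAX lines, above 85.47 to 88.91 in pXEN (difference 9.57, SE 1.22, adjusted p = 0.000194).

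Some other members of the primitive endoderm list ranked lower in rat. Sox7, a factor of parietal endoderm (GRCm38 chromosome 14, 63943673 to 63950732, plus strand), stood at 48.65 in CX1, 59.75 in MAX2, 53.19 in MAX3 and 51.22 in MAX8, where it had 9 to 23 counts. In pXEN it reached 89.79, 71.31 and 88.57, and the groups did not overlap (difference -30.02, SE 4.7, adjusted p = 0.00062). Hnf4a, a nuclear receptor of visceral endoderm and liver, ranged from 35.01 in MAX8 to 65.13 in CX1, below 67.44 to 80.87 in pXEN (difference -24.63, adjusted p = 0.0105). Bmper, a secreted BMP-binding protein, was at 35.01 to 75.03 in rat and 90.45 to 96.95 in pXEN (difference -43.17, SE 7.94, adjusted p = 0.00151), and the water channel Aqp8 at 45.34 to 72.86 against 96.2 to 96.57 (difference -36.84, adjusted p = 0.000448). CX1 was the highest rat line for Hnf4a and Bmper but not for Sox7 or Aqp8. Foxq1, a forkhead factor, was high in CX1 (86.48) and low in the MAX lines (46.57 to 56.32), overlapped the pXEN range of 77.06 to 92.01, and was called at adjusted p = 0.0476 with CX1 and 0.000428 without it.

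Across the 13 tested primitive endoderm regulators, of 14 shared and 16 listed, 2 ranked higher in rat, 5 lower and 6 were not called. The median difference was -6.82 points against -0.0017 over all tested symbols. The 53.8% called lay below the 59.5% of all tested symbols, and 38.5% were lower, beside 29.3% of all. Foxa2, a pioneer factor of endoderm, was not called at 75.98 to 86.49 in rat and 84.75 to 93.74 in pXEN (difference -6.89, adjusted p = 0.0628). It was called without MAX2 (adjusted p = 0.0459) and without pXEN2 (0.0333). Dab2, an endocytic adaptor that organizes the endoderm epithelium, was lower in every rat line, 83.7 to 97.56 against 98.5 to 99.39, but missed the threshold (difference -6.82, adjusted p = 0.0529). It passed without CX1 (-8.61, adjusted p = 0.0154) and without MAX8 (-3.99, adjusted p = 0.0114).

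**Figure D3:**
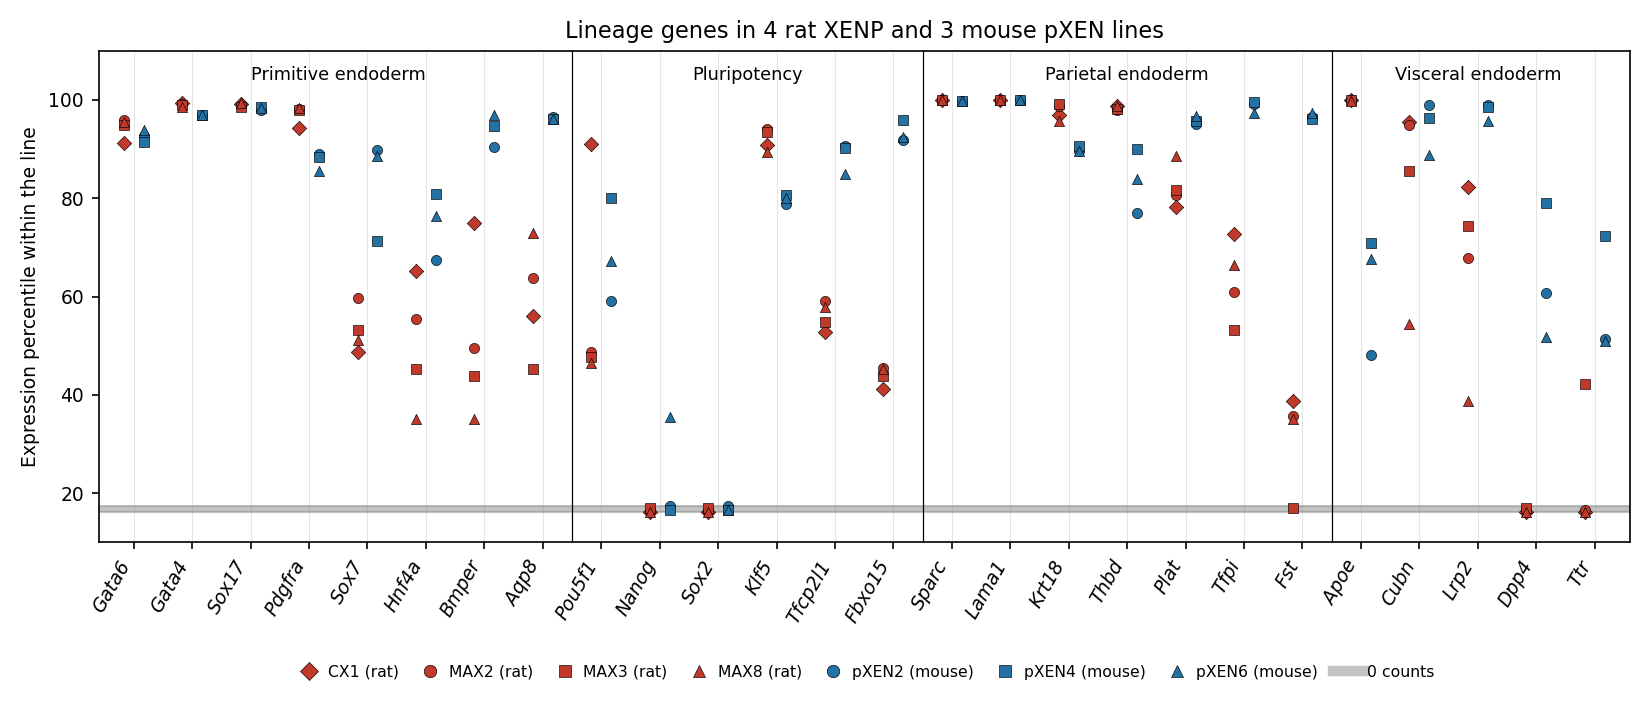
Expression percentile of 26 lineage genes in each rat XENP line (red) and each mouse pXEN line (blue), with a marker shape per line and the grey band marking 0 counts. Gata6, Gata4, Sox17, Sparc and Lama1 stand above 90 in all 7 lines, while Sox7, Bmper, Tfcp2l1, Fbxo15, Tfpi, Fst and Dpp4 lie lower in every rat line and Apoe lies higher.

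Trophoblast markers and many fibroblast markers had no or few counts in both groups. Some other fibroblast and mesenchymal markers ranked higher in rat, and several endothelial markers ranked high in 1 group. Of the fibroblast and mesenchymal list, 10 of 26 shared members had 0 counts in all 7 lines, among them Col1a2, Thy1, Col3a1, Postn, Dcn, Lum and Prrx1. Of the 6 that passed the count filter, 3 ranked higher in rat (50%, beside 30.2% of all tested symbols), 1 lower and 2 were not called. Their median difference was 7.86, and Cdh2 and Fn1, given below, were among the higher ones. The summed level of that list was 298 to 385 CPM (counts scaled to a common total of shared-symbol counts) in rat and 198 to 274 in pXEN. Such sums are not on a common scale between the species and give only the order of size within each. None of 11 shared trophoblast markers passed the filter, with sums of 1.83 to 16.6 and 6.63 to 12.9 CPM. Of 18 shared blood and endothelium markers 4 (Ptprc, Cd34, Itgam and Emcn) were at 0 in all 7 lines and 5 passed the filter (Flt1, Pecam1, Cdh5, Esam and Tek), of which 2 ranked higher in rat and 2 lower. The endothelial cadherin Cdh5 was at 90.93 to 98.58 in pXEN and 42.22 to 54.39 in rat, and the VEGF receptor Flt1 at 76.53 to 97.37 in rat with 1 count over the pXEN lines. That list summed to 264 to 544 CPM in rat and 343 to 1010 in pXEN, and its part in the other differences was not tested. Eif2s3y, a gene of the Y chromosome in both species, was at 86.21 to 96.29 in the lines labelled male (CX1, MAX3 and pXEN2) and at 0 or 1 count in the lines labelled female.

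The pluripotency genes Nanog, Sox2 and Esrrb had no or few counts in both species. Other pluripotency genes were well counted in 1 or both groups, and several of these ranked lower in rat. The epiblast factor Nanog had 0 counts in all rat lines and 1 count over the pXEN lines, against 1698 and 2851 in the ES lines. Sox2 and Esrrb, which sustain self-renewal of ES cells, had 0 counts in all 7 lines. Pou5f1, which encodes OCT4, split the rat lines: CX1 stood at 90.95 with 203 counts and the MAX lines at 46.57 to 48.64 with 7 to 9 counts. The pXEN lines lay between them, at 59.06, 79.96 and 67.18, and the difference of -10.28 points was not called (adjusted p = 0.423). Without CX1 it was -21.11 points and called (adjusted p = 0.00583). Dnmt3l, a cofactor of de novo DNA methylation, showed the same split, with 84.33 in CX1 and 16.26 to 39.93 in the MAX lines against 70.31 to 95.97 in pXEN. Its difference of -39 points was called (adjusted p = 0.0338), and the call was lost when MAX2, MAX3, MAX8, pXEN2 or pXEN4 was left out (adjusted p 0.0693 to 0.116) and by edgeR and DESeq2 on counts (0.135 and 0.239).

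Of 20 shared pluripotency genes 9 passed the count filter, and of these 1 ranked higher in rat, 6 lower and 2 were not called (median difference -18.4). Fbxo15, an F-box gene transcribed in ES cells, was at 41.17, 45.55, 43.94 and 45.31 in CX1, MAX2, MAX3 and MAX8, with 3 to 6 counts, and at 91.93, 96.01 and 92.41 in the pXEN lines (difference -49.46, SE 2.26, adjusted p = 6.3e-07). Tfcp2l1, a transcription factor downstream of LIF, stood at 52.74 to 59.11 against 85 to 90.63 (difference -32.47, SE 2.5, adjusted p = 1.1e-05). Both differed without overlap. Trim71, an RNA-binding protein of early embryos, was also lower in rat (difference -29.32, adjusted p = 0.000384), as was the T-box factor Tbx3 (difference -18.4, adjusted p = 0.0046). Klf5, a factor shared by epiblast and extraembryonic cells, was the exception, at 89.38 to 94.12 in rat and 78.78 to 80.74 in pXEN (difference 12.13, SE 1.51, adjusted p = 0.000166), while its relative Klf4 was lower (difference -8.9, adjusted p = 0.0219). The call on Klf4 was lost without MAX2, MAX3 or pXEN4 (adjusted p 0.0513 to 0.0864). Lin28a, an RNA-binding protein that blocks let-7 maturation, stayed near 90 in both groups (90.18 to 96.25 and 88.93 to 92.53) and was not called.

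Parietal endoderm genes were near the top of the ranking in both species. Sparc, a secreted matrix protein of Reichert's membrane (GRCm38 chromosome 11, 55394500 to 55423183, minus strand), stood at 99.98 or 99.99 in the rat lines and at 99.74 to 99.88 in pXEN, with every rat line above every pXEN line. The difference of 0.16 points was not called (adjusted p = 0.594), at a level where a percentile cannot move far. On counts of shared symbols, edgeR placed Sparc 2.4 log2 units higher in rat (adjusted p = 0.000114) and DESeq2 also 2.4 (adjusted p = 3.44e-15). Col4a1, a type IV collagen chain, was likewise 0.05 points apart and uncalled by percentile but 1.55 log2 units higher in edgeR (adjusted p = 0.00827). Lama1, the laminin chain of this membrane, stood at 99.97 or 99.98 in all 7 lines and was not called by percentile or by edgeR (log2 difference 0.39, adjusted p = 0.153). The collagen chaperone Serpinh1 was at 99.96 or 99.97 in rat and 99.57 to 99.79 in pXEN and was not called.

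Below that ceiling parietal endoderm genes were called in both directions, at about the share of all symbols. Of 19 tested members of 21, 4 ranked higher in rat, 7 lower and 8 were not called, with a median difference of 0.12. The 57.9% called lay near the 59.5% of all tested symbols. Thrombomodulin (Thbd), an anticoagulant receptor of parietal endoderm, was at 97.97 to 98.84 in rat and 76.93, 90.04 and 83.98 in pXEN2, pXEN4 and pXEN6 (difference 14.79, SE 2.46, adjusted p = 0.000872, and 0.103 when all 12 lines shared 1 estimate of the spread). Keratin 18 (Krt18), an intermediate filament of simple epithelia, ranked 7.67 points higher (95.67 to 99.09 against 89.62 to 90.58, adjusted p = 0.000106), while its partner Krt8 stood at 98.31 to 99.66 in all lines and was not called. Among the genes lower in rat, Plat, which encodes tissue plasminogen activator, was at 78.23 to 88.64 against 95.08 to 96.66 (difference -13.51, adjusted p = 0.000804), and the coagulation inhibitor Tfpi at 53.19 to 72.65 against 97.42 to 99.48 (difference -35.44, SE 4.02, adjusted p = 0.0001). Clusterin (Clu), serglycin (Srgn) and vimentin (Vim) were lower as well (differences -12.49, -8.86 and -8.81). The call on Vim was lost without pXEN2 (adjusted p = 0.0517).

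Follistatin (Fst), the secreted antagonist of activin and a member of the same list, had few counts in rat. It had 2 counts in CX1, 1 in MAX2, 0 in MAX3 and 1 in MAX8, against 557, 593 and 821 in the pXEN lines and 535 to 1148 in the XEN lines (GRCm38 chromosome 13, 114452290 to 114458951, minus strand). Its percentile difference was -65.01 points (SE 4.82, adjusted p = 9.25e-06). Inhba, which encodes the activin subunit that follistatin binds, showed the opposite order, with 1, 39, 47 and 12 counts in the rat lines and 0 in all pXEN lines (difference 39.64, adjusted p = 0.00273). XEN lines of the same mouse strain held 25 to 68 Inhba counts.

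Of 13 tested basement membrane genes 3 ranked higher in rat, 2 lower and 8 were not called (median difference 0.05). The 38.5% called lay below the 59.5% of all tested symbols. EdgeR on counts called 5 higher and 2 lower. Nidogen 2 (Nid2), which links laminin to type IV collagen (GRCm38 chromosome 14, 19751265 to 19811787, plus strand), stood at 62.52 in CX1, 59.11 in MAX2, 62.81 in MAX3 and 52.09 in MAX8. In the pXEN lines it was among the most counted genes, at 99.36, 97.65 and 99.19 (difference -39.6, SE 2.79, adjusted p = 7.17e-06). Egflam, which encodes the matrix protein pikachurin, ranked 35.2 points higher in rat (adjusted p = 0.000133) and fibulin 1 (Fbln1) 28.8 points higher (adjusted p = 0.000324), both without overlap. Smoc1, a calcium-binding matrix protein, had 1 count over the 4 rat lines and 45 to 67 per pXEN line (difference -43.81, adjusted p = 0.000174).

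Several enzymes that modify and fold collagen ranked lower in rat, while Col4a1 and Serpinh1 stood above 99 in both groups. Of 14 tested members of the collagen folding and secretion list 8 were lower, 1 was higher and 5 were not called, with a median difference of -2.71. The lysyl hydroxylase Plod2 was at 82.85 to 92.4 in rat and 99.81 to 99.91 in pXEN (difference -11.33, SE 1.9, adjusted p = 0.000901), and Plod1 at 87.48 to 93.37 against 97.87 to 98.67 (difference -8.4, adjusted p = 0.000455). Loxl2, which crosslinks collagen IV, was lower too (difference -37.97, adjusted p = 0.00012). Crtap, a subunit of the prolyl 3-hydroxylase complex, had 2 counts over the rat lines and 407 to 682 per pXEN line (difference -73.25, adjusted p = 8.68e-06). The prolyl hydroxylase P3h2 was the member higher in rat (9.14 points, adjusted p = 0.0267), and that call was lost without CX1 (adjusted p = 0.0601) and without MAX2, MAX3, pXEN2 or pXEN4 (0.0625 to 0.105), and when all 12 lines shared 1 estimate of the spread (0.0662).

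Most visceral endoderm genes were scarce in both species: 8 of 28 shared members passed the count filter, of which 1 ranked higher in rat, 4 lower and 3 were not called (median difference -20.91). Apolipoprotein E (Apoe), a lipid carrier secreted by yolk sac endoderm (GRCm38 chromosome 7, 19696109 to 19699188, minus strand), was the member higher in rat. It stood at 99.91, 99.93, 99.89 and 99.74 in CX1, MAX2, MAX3 and MAX8, with 2153 to 4108 counts. In the pXEN lines it was at 48.17, 70.86 and 67.57, with 11 to 81 counts, and in the ES lines it had 1925 and 1170 counts. The groups did not overlap (difference 37.67, SE 4.63, adjusted p = 0.000156). The endocytic receptor Lrp2 (megalin) was at 38.73 to 82.21 in rat and 95.79 to 98.93 in pXEN (difference -31.97, SE 8.59, adjusted p = 0.0108). Its partner cubilin (Cubn) spread widely among rat lines, from 54.39 in MAX8 to 95.6 in CX1, overlapped the pXEN range of 88.8 to 99.02 and was not called (adjusted p = 0.266). Dpp4, a membrane peptidase, had 0 counts in all rat lines and 20 to 130 in pXEN lines (difference -47.32, adjusted p = 0.000195). The thyroid hormone carrier Ttr had 3 counts over the rat lines, all in MAX3, and 16 to 88 per pXEN line (difference -35.32, adjusted p = 0.00447).

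Of 18 tested growth factor and cytokine receptors 3 ranked higher in rat, 7 lower and 8 were not called (median difference -3.89), and the 55.6% called lay near the 59.5% of all tested symbols. The higher ones were Pdgfra, given above, Fgfr3 (91.24 to 97.32 against 83.01 to 87.08, difference 9.25, adjusted p = 0.00152) and Il6st, the shared signalling chain of the LIF receptor (7.11 points, adjusted p = 0.0227). The call on Il6st was lost when any of MAX2, MAX3, MAX8, pXEN2 or pXEN6 was left out (adjusted p 0.0541 to 0.0896). The receptors Fgfr4, Erbb2 and Igf1r were lower in rat (differences -15.87, -17.41 and -26.59), Igf1r with 0 to 3 counts per rat line. Pdgfrb, a receptor of mesenchymal cells, had 1 count over the rat lines and 10 to 26 per pXEN line.

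The LIF and STAT3 list had members called in both directions. Of 12 tested members 3 were higher, 5 lower and 4 were not called (median difference -4.57). The shares were 25% higher and 41.7% lower, beside 30.2% and 29.3% of all tested symbols. Jak2, the kinase bound to the receptor, was at 93.8 to 95.37 in rat and 68.36 to 84.93 in pXEN (difference 19.98, SE 3.47, adjusted p = 0.0011). Stat3 was at 98.13 to 98.71 against 93.75 to 96.4 (difference 3.62, adjusted p = 0.00101), and Stat5b ranked 16.95 points higher (adjusted p = 0.00938). The early response gene Junb was lower (difference -15.66, adjusted p = 0.00116), as were Tfcp2l1 and Klf4, given above. Lifr itself was lower in every rat line, 96.37 to 98.33 against 98.68 to 99.45, without reaching the threshold (adjusted p = 0.07).

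The Nodal and BMP list had 5 of 12 tested members called (41.7%, beside 59.5% of all tested symbols), and the 33.3% that ranked lower lay near the 29.3% of all. Among its members, with a median difference of -3.22, Inhba was the 1 member higher in rat and 4 were lower: Fst, the ligand Bmp2 (34.98 to 53.67 against 73.97 to 84.13, difference -33.57, adjusted p = 0.000227), the BMP target Id2 (-37.27, adjusted p = 0.004) and the pseudoreceptor Bambi (-17.12, adjusted p = 0.00147). The remaining 7 were not called. Of 8 tested FGF and ERK feedback genes 2 (25%) ranked higher and 6 were not called (median difference -1.85). Cyclin D1 (Ccnd1), which carries mitogen signals to the cell cycle, had 29 to 68 counts per rat line and 1 count over the pXEN lines (difference 45.22, SE 5.3, adjusted p = 0.000118), while XEN lines held 34 to 55. Spred1, an inhibitor of ERK signalling, ranked 16.91 points higher (adjusted p = 0.00198). In the Wnt list, with a median difference of 2.25, 1 of 4 tested members was called, the ligand Wnt11 (24.85 points higher, adjusted p = 0.0099).

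Listed antioxidant and glutathione genes ranked higher in rat more than lower. Of 21 tested members 12 were higher, 3 lower and 6 were not called, with a median difference of 6.44 points. The shares were 57.1% higher and 14.3% lower, beside 30.2% and 29.3% of all tested symbols. Nqo1, a quinone reductase induced by the transcription factor NRF2, stood at 96.32, 95.09, 97.33 and 96.81 in CX1, MAX2, MAX3 and MAX8, against 48.81, 50.88 and 38.82 in pXEN2, pXEN4 and pXEN6. The difference was 50.22 points (SE 2.92, adjusted p = 2.64e-06), and XEN lines held 4 to 11 Nqo1 counts while ES lines held 137 and 130. Gpx2, a glutathione peroxidase (GRCm38 chromosome 12, 76792333 to 76795554, minus strand), was at 96.16 to 98.47 against 43.12 to 59.64 (difference 43.49, SE 3.68, adjusted p = 1.91e-05). Srxn1, which restores oxidized peroxiredoxins, ranked 35.67 points higher (adjusted p = 2.64e-06). Gclm, the modifier subunit of the enzyme that limits glutathione synthesis, was 33.91 points higher, the glutathione reductase Gsr 33.12 and heme oxygenase Hmox1 24.2, all without overlap. Nfe2l2, which encodes NRF2, was at 91.32 to 93.67 against 72.8 to 81.01 (difference 15.87, SE 1.93, adjusted p = 0.000149). Not every gene of the group followed: thioredoxin reductase Txnrd1, also an NRF2 target, was at 54.63 to 65.52 in rat and 89.17 to 95.92 in pXEN (difference -35.29, SE 3.12, adjusted p = 2.42e-05), and the peroxidases Gpx3 and Gpx4 were lower (differences -8.47 and -2.57).

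NRF2 is known to bind antioxidant response elements, so the mouse promoters of this list were searched for TGACNNNGC on both strands in the 250 bases before each start (RefSeq, GRCm38.p6). The motif and the genes shown were chosen after the values were seen. By symbol 18 of the 21 tested members matched, with 23 promoters, of which 5 (21.7%) held the motif, beside 3338 of all 32851 promoters (10.2%). The promoters of Gclm and Nfe2l2, higher in rat, and 1 of the 3 of Txnrd1, lower in rat, are shown 5′ to 3′ along the gene, with the match in capitals.
Gclm (chr3:122245307-122245556, plus strand): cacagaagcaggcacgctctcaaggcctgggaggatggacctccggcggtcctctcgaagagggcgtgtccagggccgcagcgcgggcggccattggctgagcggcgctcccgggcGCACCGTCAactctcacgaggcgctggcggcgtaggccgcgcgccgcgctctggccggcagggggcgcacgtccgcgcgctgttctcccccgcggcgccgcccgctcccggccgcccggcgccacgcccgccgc
Nfe2l2 (chr2:75704664-75704913, minus strand): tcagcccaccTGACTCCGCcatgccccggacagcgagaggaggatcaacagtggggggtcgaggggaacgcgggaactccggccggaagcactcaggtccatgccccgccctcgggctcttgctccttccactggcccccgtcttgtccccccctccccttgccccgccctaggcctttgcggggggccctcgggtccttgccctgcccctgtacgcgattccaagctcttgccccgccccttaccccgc
Txnrd1 (chr10:82858956-82859205, plus strand): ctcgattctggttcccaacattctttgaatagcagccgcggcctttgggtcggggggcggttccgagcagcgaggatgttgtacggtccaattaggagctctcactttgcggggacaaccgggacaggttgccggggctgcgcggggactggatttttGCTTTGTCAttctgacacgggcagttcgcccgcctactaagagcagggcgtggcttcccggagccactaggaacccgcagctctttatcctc
The matches begin 134, 240 and 92 bases before the start and lie on the strand opposite the gene for Gclm and Txnrd1. The same letters stand near a gene that ranked higher in rat and near one that ranked lower. Nqo1, Srxn1 and Gpx2 had no match in this window. These are mouse sequences, a match is a description and not a binding site, and the rat promoters were not used here.

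Listed imprinted genes, which are transcribed from 1 parental allele, also ranked higher more than lower. Of 15 tested members, of 19 shared, 9 were higher, 1 was lower and 5 were not called (median difference 19.15, and 15.6 without CX1). The shares were 60% higher and 6.67% lower, beside 30.2% and 29.3% of all tested symbols. Cdkn1c and Nnat passed the count filter only through rat lines and could hardly be called lower, so the split is partly set by the filter. Cdkn1c, a cell cycle inhibitor expressed from the maternal allele (GRCm38 chromosome 7, 143458339 to 143461050, minus strand), stood at 93.7 in CX1, 99.38 in MAX2, 99.45 in MAX3 and 99.12 in MAX8, with 278 to 1345 counts. The pXEN lines had 0, 2 and 4 counts and the XEN lines 2 to 4 (difference from pXEN 65.25, SE 5.32, adjusted p = 1.5e-05). Phlda2, which limits placental growth and lies in the same imprinted cluster, was at 94.2 to 96.31 against 38.6 to 46.12 (difference 52.71, SE 2.29, adjusted p = 4.99e-07). Mest and Peg3, expressed from the paternal allele, ranked 36.47 and 27.4 points higher (adjusted p = 0.000382 and 0.000304). Nnat, also paternally expressed, had 14 to 20 counts per MAX line and 0 in CX1 and in all pXEN lines (28.39 points, adjusted p = 0.0277). Sfmbt2, a Polycomb-related gene imprinted in mouse extraembryonic tissues (GRCm38 chromosome 2, 10370510 to 10595253, plus strand), went the other way. It was at 72.31 in CX1 and 35.01 to 41.36 in the MAX lines, with 58 counts and 1 to 3 counts, against 98.6 to 99.22 in pXEN (difference -52.72, SE 8.02, adjusted p = 0.000526).

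**Figure D4:**
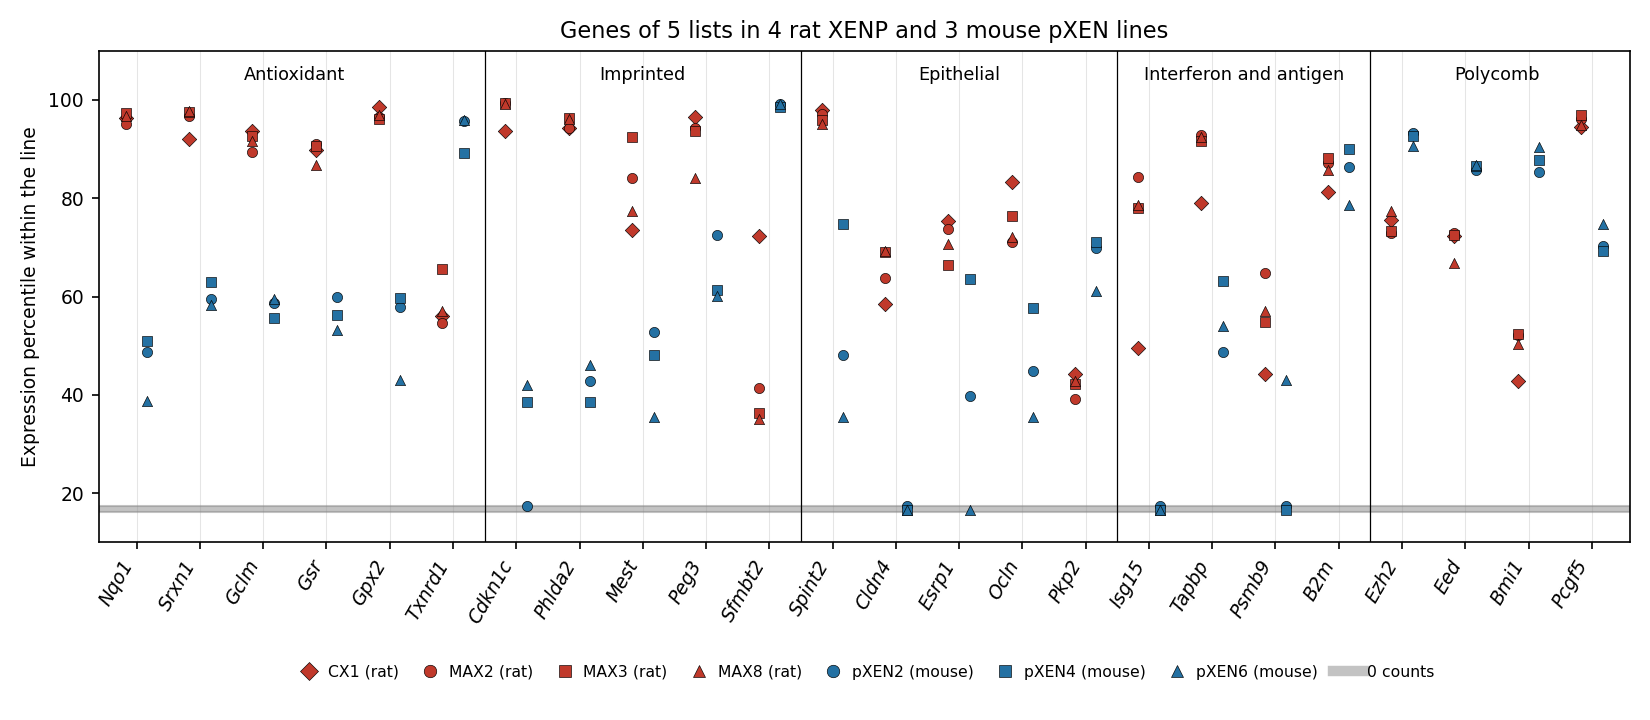
Expression percentile of 24 genes from 5 lists in each rat XENP line (red) and each mouse pXEN line (blue), with a marker shape per line and the grey band marking 0 counts. Red points lie above blue for Nqo1, Srxn1, Gclm, Gsr, Gpx2, Cdkn1c, Phlda2, Mest, Peg3, Spint2, Cldn4, Esrp1, Ocln, Isg15, Tapbp, Psmb9 and Pcgf5, and below for Txnrd1, Sfmbt2, Pkp2, Ezh2, Eed and Bmi1.

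Listed genes of epithelial junctions ranked higher in rat more than lower, many from low levels in mouse. Of 18 tested members 11 were higher, 1 was lower and 6 were not called (median difference 13.07). The shares were 61.1% higher and 5.56% lower, beside 30.2% and 29.3% of all tested symbols. Cldn4 and Cdh1 passed the count filter only through rat lines and could hardly be called lower, so the split is partly set by the filter. Without CX1, Cdh1 fell under the count filter, and 10 of 17 were higher and 2 lower. Spint2, an inhibitor of epithelial serine proteases, stood at 95.06 to 97.93 in rat, against 48.17, 74.7 and 35.55 in pXEN2, pXEN4 and pXEN6 (difference 43.71, SE 7.45, adjusted p = 0.000988). The tight junction protein claudin 4 (Cldn4) had 23 to 44 counts per rat line and 0 in every pXEN line (difference 48.28, SE 3.52, adjusted p = 8.62e-06). Occludin (Ocln) was at 71.1 to 83.31 against 35.55 to 57.68 (difference 29.75, adjusted p = 0.00103). Esrp1, a splicing regulator of epithelia, was at 66.39 to 75.3 against 39.86, 63.54 and 16.64 (difference 31.57, adjusted p = 0.0136), and its difference was 19.88 without pXEN6. EdgeR and DESeq2 on counts did not call it (adjusted p = 0.0947 and 0.17). E-cadherin (Cdh1) had 45 counts in CX1 and 4 to 25 in the MAX lines against 0 to 6 in pXEN, overlapping at the low end (difference 30.33, adjusted p = 0.00943). The desmosome gene Pkp2 was lower, at 39.22 to 44.2 against 61.15 to 71.07 (difference -25.31, adjusted p = 0.000127). The mesenchymal cadherin Cdh2 also ranked higher in rat (48.98 points, adjusted p = 0.00123), as did fibronectin, Fn1 (33.03, adjusted p = 0.00133), which had 0 to 5 counts per pXEN line and 586 to 603 per XEN line.

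Interferon-induced and antigen presentation genes were higher in rat wherever they were called: 7 of 11 tested members were higher, 0 lower and 4 not called by limma, of 23 shared (median difference 13.58). At an unadjusted p under 0.05, and by edgeR and DESeq2 on counts, the numbers were the same, 7 higher and 0 lower. Of the 23 shared members, 10 had 0 counts in all pXEN lines and 2 had 0 in all rat lines. Isg15, Psmb9 and Irf7 passed the count filter only through the rat lines and could hardly be called lower. The absence of lower calls is thus partly set by the filter, in all of these tests. Isg15, a ubiquitin-like protein induced by interferon, was at 49.52 in CX1 and 78.11 to 84.24 in the MAX lines, with 0 counts in every pXEN line (difference 55.79, SE 7.34, adjusted p = 0.000227). Tapbp, the tapasin that loads peptides onto MHC class I, was at 79.05 in CX1 and 91.7 to 92.84 in the MAX lines against 48.81 to 63.27 in pXEN (difference 33.63, SE 4.33, adjusted p = 0.000201). Psmb9, an immunoproteasome subunit, and the factor Irf7 ranked 29.56 and 26.71 points higher from 0 to 5 counts per pXEN line. CX1 was the lowest rat line for all of Isg15, Tapbp, Psmb9 and Irf7. B2m, the light chain of MHC class I, was at 81.2 to 88.27 in rat and 78.62 to 89.93 in pXEN and was not called.

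Polycomb genes, whose complexes modify histones to keep genes silent, ranked lower in rat more than higher. Of 20 tested members 10 were lower, 4 higher and 6 were not called (median difference -7.41). Ezh2, the methyltransferase of Polycomb repressive complex 2, was at 72.89 to 77.5 in rat and 90.61 to 93.23 in pXEN (difference -17.33, SE 1.76, adjusted p = 5.3e-05). Its partner Eed was at 66.8 to 72.89 against 85.69 to 86.85 (difference -15.22, SE 2.07, adjusted p = 0.000277). In the other complex, Bmi1 was lower (42.85 to 52.32 against 85.43 to 90.41, difference -38.45, adjusted p = 9.81e-06) and its paralog Pcgf5 ranked 24.12 points higher (94.5 to 96.91 against 69.32 to 74.86, adjusted p = 6.69e-06). A further paralog, Pcgf1, had 0 counts in the rat lines and 28 to 32 per pXEN line (difference -40.29, adjusted p = 3.38e-05). The chromodomain gene Cbx6 was lower (difference -22.07, adjusted p = 0.0276), a call that was lost without MAX2 (adjusted p = 0.0511).

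Genes of DNA methylation were also called in both directions, with 2 of 7 tested members higher, 3 lower and 2 not called (median difference -8.57). These are 28.6% and 42.9%, beside 30.2% and 29.3% of all tested symbols. Uhrf1, which guides maintenance methylation to replicated DNA, was at 65.95 to 74.16 in rat and 95.68 to 96.43 in pXEN (difference -26.4, SE 2.12, adjusted p = 1.38e-05). The maintenance enzyme Dnmt1 was at 78.73 to 83.46 against 93.42 to 95.21 (difference -12.98, SE 1.57, adjusted p = 0.000142). The glycosylase Tdg, which takes part in active demethylation, had 162 to 239 counts per rat line and 0 to 2 counts in each of the 8 mouse lines (difference 60.86, adjusted p = 1.42e-05). Counts near 0 in all mouse lines cannot be told apart from a property of the mouse gene table. The corepressor Trim28 ranked 2.18 points higher (adjusted p = 0.000903).

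Among metabolic lists, the 29 listed nuclear genes of oxidative phosphorylation ranked lower in rat more than higher. Of these 17 were lower, 1 was higher and 11 were not called, with a median difference of -2.94 points. The shares were 58.6% lower and 3.45% higher, beside 29.3% and 30.2% of all tested symbols. The list does not hold every subunit, and Atp5l and Atp5g2, outside it, ranked higher in rat. Sdha, a subunit of complex II, was at 81.75 in CX1 and 62.67 to 67.4 in the MAX lines against 90.56 to 94.02 in pXEN (difference -23.61, SE 4.19, adjusted p = 0.00125). The complex I subunits Ndufv1 and Ndufb10 were lower (differences -22.99 and -20.7, adjusted p = 7.68e-05 and 0.000165). Ndufa1, also of complex I, had 0 counts in the rat lines and 110 to 138 per pXEN line (difference -62.95, adjusted p = 5.01e-07). The member higher in rat was Ndufb5 (4.78 points, adjusted p = 0.0232). The rat libraries held fewer counts and more multimapping reads than the pXEN libraries, and the part of either in this list was not tested.

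Cholesterol synthesis genes ranked higher in 9 of 24 tested members, lower in 4 and uncalled in 11 (median difference 3.19). In all 54.2% were called, beside 59.5% of all tested symbols. The early enzymes Idi1 and Fdps ranked 25.79 and 14.23 points higher (adjusted p = 1.04e-05 and 6.01e-05), the desaturase Sc5d 37.44 (81.89 to 88.73 against 46.12 to 52.25, adjusted p = 5.92e-06) and their activator Srebf2 12.22 (adjusted p = 0.000688). Within the same pathway the kinase Pmvk and the squalene enzymes Fdft1 and Sqle were lower, with differences of -31.07, -19.91 and -13.64 (adjusted p = 5.99e-05, 0.000165 and 0.000878). Endocytosis and lysosome genes had 6 higher, 10 lower and 11 not called of 27 (median difference -1.41). The 59.3% called lay near the 59.5% of all tested symbols. Cathepsin Z (Ctsz) was at 99.09 to 99.63 in rat and 65.64 to 72.25 in pXEN (difference 31.23, SE 1.71, adjusted p = 2.01e-06), and the hexosaminidase Hexa ranked 40.21 points higher (adjusted p = 0.000112). The proteases Ctsb, Ctsd and Lgmn were lower (differences -13.23, -8.3 and -19.59). Lrp1, an endocytic receptor related to megalin, ranked 21.62 points higher with overlap (adjusted p = 0.0196), a call lost without MAX2, MAX3 or pXEN4 (adjusted p 0.0526 to 0.0557).

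Of 75 cytosolic ribosomal protein genes 20 ranked higher in rat, 15 lower and 40 were not called, with a median difference of 0.21. The 46.7% called lay below the 59.5% of all tested symbols. EdgeR on counts called 31 higher and 17 lower. Rpl30 and Rpl34 had 518 to 1178 counts per rat line and 0 to 2 per pXEN line (differences 75.09 and 61.87), while Rps19 had 1 to 4 counts per rat line and 1341 to 1928 per pXEN line (difference -58.85). Ribosomal protein genes have many processed copies in both genomes, and values for single members are uncertain.

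Genes of mitosis and DNA replication ranked lower in 11 of 29 members, higher in 3 and uncalled in 15 (median difference -1.61). In all 48.3% were called, beside 59.5% of all tested symbols. Cyclin E2 (Ccne2) was lower (58.42 to 71.15 against 82.14 to 87.96, difference -20.35, adjusted p = 0.000598), although on counts of both strands its difference was -3.33 and not called (adjusted p = 0.367). Gins2, of the replicative helicase, was lower too (difference -18.14, adjusted p = 0.000467), as was the mitotic regulator Birc5 (-13.15, adjusted p = 0.000566). Cyclin E1 (Ccne1) ranked 18.1 points higher (adjusted p = 0.0102) and 11.24 without pXEN4. The mitotic kinase Aurkb and the helicase subunit Mcm4 were higher by 11.71 and 9.98 points. Of 19 tested p53 targets and cell cycle inhibitors 8 were higher, 3 lower and 8 were not called (median difference -0.11). The 57.9% called lay near the share of all tested symbols. Beside Cdkn1c and Ccnd1, given above, the p53 targets Cdkn1a and Mdm2 ranked 5.48 and 5.97 points higher (adjusted p = 0.0131 and 0.00227), and cyclin D2 (Ccnd2) ranked lower, with 2 counts over the rat lines and 10 to 45 per pXEN line (difference -29.75, adjusted p = 0.00391).

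**Figure D5:**
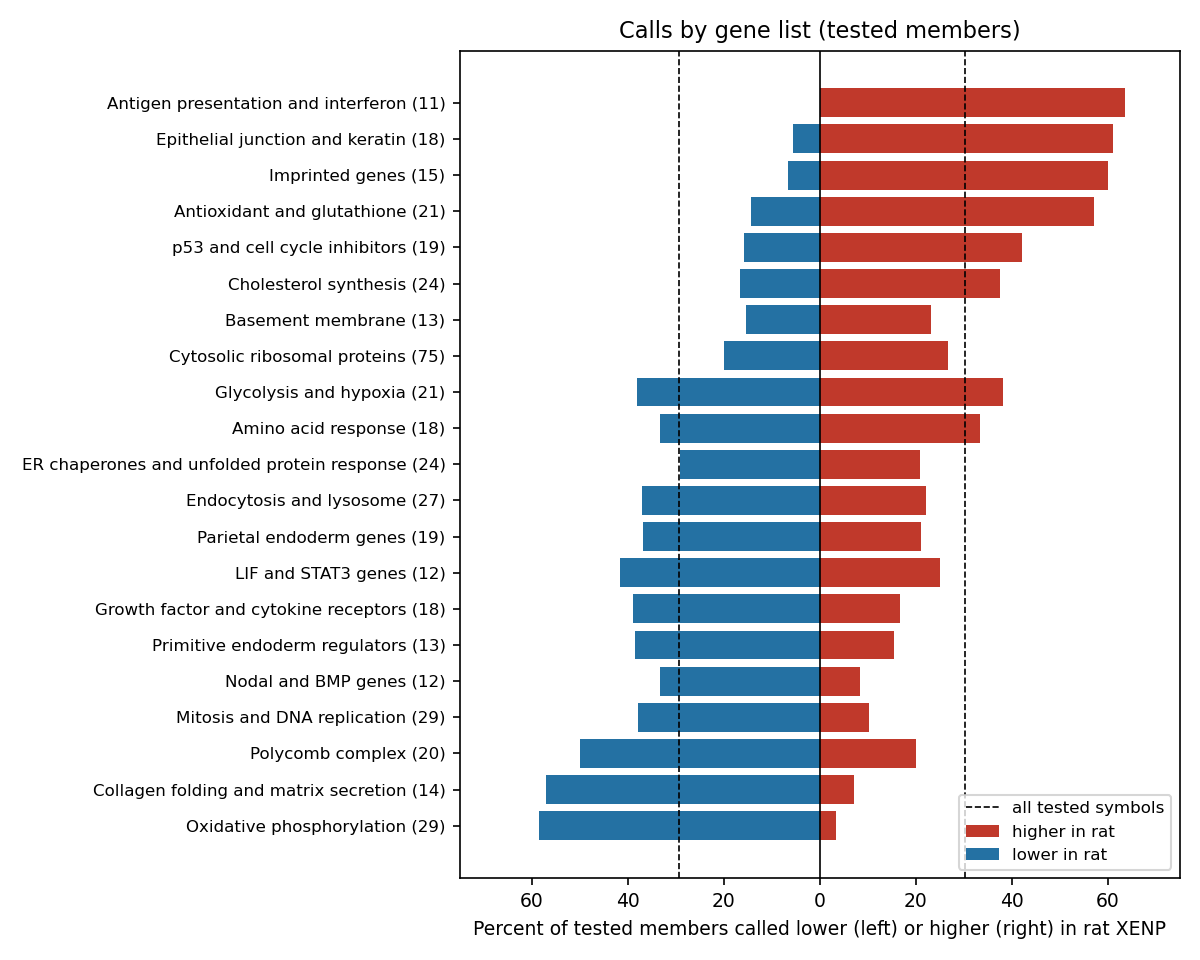
Percent of tested members of each list (number in brackets) that ranked lower (blue, left) or higher (red, right) in rat XENP than in mouse pXEN; lists with at least 10 tested members are shown. Dashed lines mark the shares over all 8155 tested symbols, 29.3% lower and 30.2% higher. The antigen presentation, epithelial, imprinted and antioxidant lists extend furthest past the right line. Polycomb, collagen folding and oxidative phosphorylation lists extend furthest past the left line. Other lists pass a line by less, and the glycolysis and amino acid response lists pass both.

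The furthest differences among called symbols with at least 50 counts on average in the higher group lay in symbols at or near 0 in 1 species. The 10 symbols furthest higher in rat (Rpl26, Oaz1, Eno1, Amd1, Akr1c14, Fcrla, Hist1h4m, Ctla2a, Tgoln2 and Hist2h3c2) had 0 counts in all 3 pXEN lines and differed by 76.49 to 82.27 points. Eno1, the glycolytic enolase, held 683 to 1210 counts per rat line and 1 count over all 8 mouse lines. Oaz1, the antizyme that controls polyamine synthesis, held 872 to 1218 counts per rat line and 0 in the mouse lines. Among the 10 furthest lower were Hnrnpab, Hmgn1, Myl6, Rlim, Cttn, Slco3a1, Hnrnpc, Tpi1 and Clcn2, with differences of -82.83 to -74.66. They had 0 counts in every rat line, except for 1 count of Tpi1 in CX1. Hnrnpab, an RNA-binding protein, held 2007 to 2264 counts per pXEN line, and the glycolytic enzyme Tpi1 575 to 1147. Several of these, such as Eno1, Tpi1, Hnrnpc and Oaz1, are housekeeping genes, so a count near 0 in a whole species cannot be told apart from a property of that species' gene table.

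Such symbols were few among all tested symbols but not among the larger differences. Of tested symbols, 197 (2.42%) had at most 3 counts over the 4 rat lines and 59 (0.723%) at most 3 over the 8 mouse lines. Over the 3 pXEN lines alone, 235 of the 2460 symbols called higher had at most 3 counts. Among called symbols at least 25 points higher, 224 of 549 had at most 3 counts over the pXEN lines. Among those at least 25 points lower, 191 of 515 had at most 3 over the rat lines. Among symbols at least 50 points lower in rat, 77 of 106 (72.6%) had at most 3 counts over the rat lines. Among those at least 50 points higher, 72 of 96 had at most 3 over the pXEN lines and 23 (24%) at most 3 over all 8 mouse lines. With the unstranded counts 188 of the 197 and 52 of the 59 stayed at or under 3. Left out of the ranking and the test, they changed the shares called little: 2323 of 7899 symbols (29.4%) ranked higher and 2314 (29.3%) lower. Of the genes described above, Crtap, Dpp4, Ttr, Smoc1, Ndufa1, Pcgf1, Pdgfrb and Ccnd2 are among the symbols left out.

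With at least 20 counts on average in both groups, a limit set after the values were seen, the genes furthest higher in rat were led by Hspb8, Spint2, Gpx2, Erap1, Csrp1, Glrx3, Srd5a1, Fut4 and Apoe, and those furthest lower by Bmper, Ppp1r16b and Nid2. Erap1, a peptidase that trims peptides for MHC class I, was at 93.59 to 96.66 in rat and 49.21 to 56.85 in pXEN (difference 42.32, SE 2.22, adjusted p = 1.49e-06). Csrp1, a LIM protein of the actin cytoskeleton, was at 95.69 to 98.21 against 51.86 to 60.35 (difference 41.16, SE 2.23, adjusted p = 1.86e-06). Srd5a1, a steroid 5-alpha-reductase, was at 89.02 in CX1 and 96.52 to 98.61 in the MAX lines against 57.25 to 57.68 (difference 38.02, adjusted p = 4.73e-06). Fut4, the fucosyltransferase that makes the SSEA-1 epitope, ranked 37.76 points higher (adjusted p = 0.000107). Hspb8, a small heat shock protein, ranged from 16.54 in pXEN4 to 73.19 in pXEN6, and its difference of 46.39 was 30.06 without pXEN4. Among the lower genes, the chaperone Hsp90aa1 was at 56.48 to 72.65 in rat and 98.73 to 99.71 in pXEN (difference -37.53, SE 3.64, adjusted p = 4.14e-05), and the kinase Pak2 at 55.48 to 59.71 against 91.82 to 92.64 (difference -34.49, adjusted p = 2.32e-06). Histone gene Hist1h2bk spread from 0 counts in CX1 to 114 in MAX8 (difference -36.56, adjusted p = 0.0369), and its call was lost without MAX2 or any pXEN line (adjusted p 0.0823 to 0.0879) and by edgeR and DESeq2 on counts (0.0953 and 0.213), while without CX1 the difference was -24.16.

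The most counted shared symbols stood at the top of both species. By mean percentile over the 7 lines the leading 10 were Rmrp (the RNA of a ribosomal RNA processing enzyme), Lama1, Col4a1, the elongation factor Eef2, Rpl4, the tubulin Tubb5, Rplp0, Sparc, the helicase Eif4a1 and the chaperone calreticulin (Calr). All stood at 99.74 or above in every line. None was called by limma, at an adjusted or an unadjusted p under 0.05, while edgeR and DESeq2 on counts each called 4 of the 10 higher in rat and 0 lower.

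To place the rat lines among the mouse groups, genes that differed between pXEN and the other mouse lines were called without rat data. Usable symbols also had to pass the count filter over the rat and pXEN lines. A gene with few counts in every pXEN line could therefore enter only through its rat counts, which favours a rat mean away from pXEN. This bears most on the symbols lower in pXEN. Each rat mean was assigned to the nearer mouse group. The pXEN lines enter both the choice of genes and the midpoint, so the shares are descriptions with no test. In edgeR's quasi-likelihood test over the 8 mouse lines, 505 of 11012 genes (4.59%) differed between pXEN and XEN, 96 (0.872%) higher in pXEN and 409 (3.71%) lower. Between pXEN and ES 4011 (36.4%) differed, 1980 (18%) higher in pXEN and 2031 (18.4%) lower. Of 74 usable symbols higher in pXEN than in XEN, the rat mean lay nearer pXEN for 37 (50%), and of 149 lower in pXEN for 59 (39.6%). Over all 7848 symbols usable in both fits the share was 50.79%. For symbols higher in pXEN the median rat percentile of 68.31 lay between XEN (52.09) and pXEN (81.72). For those lower in pXEN the median rat percentile of 68.51 lay closer to XEN (71.49) than to pXEN (51.9).

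The same was done against ES cells. Of 1654 symbols higher in pXEN than in ES, the rat mean lay nearer pXEN for 1004 (60.7%), and of 971 lower in pXEN for 564 (58.08%), beside 56.96% over all 7848. Leaving out pXEN2, pXEN4 or ES2 brought the share for symbols lower in pXEN to 56.38%, 55.66% and 56.78%. For symbols higher in pXEN the median percentile was 82.5 in pXEN, 61.51 in ES and 77.04 in rat. The share for these symbols was lowest in CX1 (57.07%) and highest in MAX2 (62.76%), and for symbols lower in pXEN it was 54.38% in CX1, beside 54.23% over all symbols in that line. Within the primitive endoderm list, 10 of 13 symbols higher in pXEN than in ES had a rat mean nearer pXEN, within the parietal endoderm list 14 of 17 and within the visceral endoderm list 2 of 5.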

How the data were processed

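Total RNA depleted of ribosomal RNA was sequenced as paired ends from strand-specific libraries, per the labels' protocols. Each line has a table deposited by the authors, holding raw counts of whole reads for every gene in unstranded, same-strand and reverse-strand columns. CASAVA 1.8.2, Trimmomatic 0.33, STAR 2.5.1, DESeq2 and the builds mm10 and rn6 appear in the submitters' processing notes; the annotation was not given in the sources used here. Counts of the reverse-strand column were 98.94% to 99.26% of stranded counts, and this column was used. Read-class rows (73.45% to 78.33% of reads in pXEN, 89.73% to 91.76% in rat) and Rn45s were left out. The pXEN tables carry a mouse XENP name while their titles and cell type say pXEN, which was used.

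Within each line, percentile = 100 x (average rank - 0.5) / 14386. Differences were tested with limma 3.58.1 (R 4.3.3, trend and robust) on 4 against 3 lines, with Benjamini-Hochberg adjustment over 8155 symbols having at least 10 counts in at least 3 lines, after a check on simulated data. The mouse fits used edgeR 4.0.16. Alternatives included edgeR and DESeq2 1.42.0 on counts. Percentiles cannot move far near 100.

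Members and gene lists were chosen with earlier results of these data known. Named genes were a set of anchor genes, the 10 furthest differences in each direction (no overlap, at least 50 counts on average in the higher group), up to 4 called members per list and the 10 highest mean percentiles. Other genes named were chosen after their values were seen. Not every gene the rule names is reported here. CPM sums over gene lists were computed from shared-symbol counts. Mouse coordinates are from GENCODE vM21 on GRCm38.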

Additional observations from a re-analysis of the deposited data

Results flagged for a closer look

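Among the 160 named genes with values, 27 had 1 rat line far from the other 3, in that the gap to the nearest other line, as a share of the range, passed Dixon's 95% limit for 4 samples. Chance flags about 1 in 20 such groups. The line apart was CX1 for 22 genes, MAX2 for 3, MAX3 for 1 and MAX8 for 1.

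CX1 stood above the MAX lines for Pou5f1 (90.95 against 46.57 to 48.64), Sfmbt2 (72.31 against 35.01 to 41.36), Mum1l1 (76.01 against 42.75 to 47.69), Birc5 (88.79 against 80.4 to 81.1), Hspb8 (97.79), Amd1 (98.25) and Rpl26 (99.34). For Slc2a3 (47.69), Crtap (38.82), Tpi1 (34.98) and Pdgfrb (34.98) the MAX lines had 0 counts and CX1 had 1 to 8.

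CX1 stood below the MAX lines for the lineage receptor Pdgfra (94.24 against 97.95 to 98.27), the interferon-related Tapbp (79.05 against 91.7 to 92.84), the imprinted Cdkn1c (93.7 against 99.12 to 99.45), Fcrla (92.51), Ctla2a (92.76), Csrp1 (95.69), Lifr (96.37), Pth1r (98.74), Mthfd2 (65.13 against 67.61 to 67.91), Calr (99.89) and Lama1 (99.97).

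MAX2 was apart for Smoc1 (35.67, with the 1 count of the rat lines), Sc5d (81.89 against 87.83 to 88.73) and Pmvk (55.48 against 47.67 to 48.53). MAX3 was apart for Ttr (42.22, with the 3 counts of the rat lines), and MAX8 for Eef2, where all 4 lines round to 99.95.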

How the results depend on the processing

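The 2460 higher and 2391 lower calls stayed within 1.5 times under every alternative tried (1664 to 2691 higher, 1643 to 2640 lower). Of the 139 called genes that are named, 111 to 139 had a value per alternative. None of those with a value changed direction, and at most 7 per alternative lost their call. With any pXEN line left out, 114 had a value. A gene with fewer than 10 counts in every rat line cannot pass the filter there, so those runs do not check its lower call. Over all symbols, 3 were called in opposite directions with unstranded counts, picked out after their values were seen: Apex1 (-6.7 to 11.24), Ppib (-1.47 to 1.81) and Rnf123 (-9.93 to 12.63). Ranking without symbols near 0 in a species stretches the percentile scale. The named genes that changed sign had no call. In log2 units on counts, edgeR and DESeq2 gave Pou5f1 0.1 and 0.09, Lama1 0.39 in both, Krt8 0.31 in both, Rpl4 0.24 in both, Tubb5 0.16 and 0.17, Rplp0 0.03 in both and Eif4a1 0.07 in both. In normal scores Krt8 was 0.07 higher, and in points Eif2s3y was -2.05 with sex as a covariate. With 1 line left out Lama1 ranged from -0.0052 to 0.0017, Krt8 from -0.26 to 0.19, Rpl4 from -0.01 to 0.0046 and Eif2s3y from -4.91 to 23.1. The cause was not tested.

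Mouse counts moved more. Genes higher in pXEN than XEN were 156 with DESeq2, 127 with every counted gene tested and 63 to 83 with a line left out, 63 without XEN1. Genes lower were 475 with DESeq2, 545 with every counted gene tested and 263 to 388 with a line left out, 263 without pXEN2. Against ES they were 1165 to 2035 higher with a line left out, 1165 without ES2, and 1313 to 2092 lower, 1313 without ES3, and 2553 lower with every counted gene tested. The rat share nearer pXEN for symbols above XEN was 53.52% after thinning, 53.73% without symbols near 0 (added after seeing the data) and 44.62% to 62.3% with a line left out. For symbols below XEN it was 38.93% to 46.46%. For symbols above ES it was 57.26% when ranking tested symbols only and 59.85% to 64.87% with a line left out, and for symbols below ES 61.17% when ranking tested symbols only.

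No paired analysis was possible because the groups compared share fewer than 2 replicate numbers. The rat libraries held fewer counts, so genes of low rank are less precise there.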

Other observations

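Glycolysis genes were divided between the species. Of 21 tested members of the glycolysis and hypoxia list 8 ranked higher in rat, 8 lower and 5 were not called (median difference 0.29), beside 30.2% and 29.3% of all tested symbols. The platelet isoform of phosphofructokinase, Pfkp, stood at 95.48 to 96.85 in the rat lines and at 46.3, 16.54 and 38.82 in pXEN2, pXEN4 and pXEN6 (difference 62.12, SE 5.91, adjusted p = 3.69e-05, limma). The lactate exporter Slc16a3 ranked 35.97 points higher and the kinase Pdk1, which holds pyruvate out of mitochondria, 29.44 points higher (adjusted p = 2.27e-05 and 6.41e-05). The glucose transporter Slc2a3 had 8 counts in CX1 and 0 in the MAX lines against 139 to 487 in pXEN (difference -65.78, adjusted p = 0.000132), and the aldolase Aldoa was at 72.55 to 79.62 against 98.62 to 98.78 (difference -22.81, adjusted p = 1.13e-05). Amino acid response genes had 6 higher, 6 lower and 6 not called of 18 (median difference 0.76). The 33.3% in each direction lay near the shares of all tested symbols. The folate enzyme Mthfd2 was lower (difference -25.31, adjusted p = 3.69e-05), as were the serine synthesis enzymes Psat1 (-18.7) and Psph (-18.3), while Shmt2, which splits serine to glycine, ranked 21.41 points higher (adjusted p = 0.00182).

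Genes usually named as endothelial were present in both species with different members. Flt1, a VEGF receptor, stood at 76.53 in CX1 and 91.31 to 97.37 in the MAX lines and had 1 count over the pXEN lines (difference 67.4, SE 6.15, adjusted p = 2.96e-05). The adhesion molecule Pecam1 had 46 to 267 counts per rat line and 0 in pXEN (difference 62.58, adjusted p = 1.71e-05). VE-cadherin (Cdh5) was at 42.22 to 54.39 in rat and 90.93 to 98.58 in pXEN (difference -47.48, SE 3.23, adjusted p = 5.91e-06), and Esam, another junction protein, had 0 to 5 counts per rat line and 126 to 276 per pXEN line (difference -53.06, adjusted p = 0.00035). Tek, the angiopoietin receptor, was at 65.98 to 84.89 and 76.88 to 92.73 and was not called (adjusted p = 0.0702), though it was called lower without CX1 (-15.05, adjusted p = 0.0136). Endoplasmic reticulum chaperones had 5 higher, 7 lower and 12 not called of 24 (50% called, beside 59.5% of all tested symbols). Among them BiP (Hspa5) ranked 0.89 points higher (adjusted p = 0.0301). Sel1l, an adaptor of protein degradation, was lower (difference -27.83, adjusted p = 2.68e-05).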
